A study of Mus musculus with 2 samples.

Results

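The collagen genes of a mouse tumour were followed from cell cluster to cell cluster. They were taken as every gene of the expression matrix whose symbol has the form Col, a type number, a and a chain number, which gave 37 of 18685 genes and covered 24 collagen types. Of these, 34 had at least 1 unique molecular identifier (UMI, the tag that marks an individual captured transcript), 25 had at least 10, and 3 (Col2a1, Col9a2 and Col17a1) had none. The tumours were grafts of Hep1-6, a mouse hepatoma line, in wild type male C57BL/6 mice aged 6 to 8 weeks, kept on a normal diet and free of specific pathogens. The mice were injected intraperitoneally with a SIGLEC15 antibody or with control IgG. SIGLEC15 is a sialic acid-binding receptor found on myeloid cells. Each group had 3 mice and 1 library, and whether a library pools its mice is not stated. Tumours were digested with collagenase and DNase, and cells enriched with anti-CD45 beads were loaded in equal parts with unsorted cells, so that cell numbers do not give the make-up of the tumour. All values below are of the antibody library unless IgG is named, since only 1 collagen gene, Col9a1, has a complete row in the IgG matrix that was at hand. With 1 library there is no replicate check, and every interval is a 95% interval that covers counting error only.

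Collagens are proteins whose chains wind into a triple helix, and each type is built from its own chains. Fibrillar collagens such as types I, III and V form the fibres that give a tissue its tensile strength, while type IV forms the sheet-like network of basement membranes under epithelium and around vessels. In tumours the fibrillar types are known as products of fibroblasts, and types IV, XV and XVIII as parts of vascular basement membrane. The fragment endostatin is cut from the end of the type XVIII chain.

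The antibody library held 5482 cells in 30 deposited clusters and 74168827 UMIs, with 553 to 46558 UMIs per cell. Of these UMIs, 53463 came from collagen genes. The clusters named Fibroblast&Endothelial_1 and Fibroblast&Endothelial_2 were checked against markers. All 96 cells of Fibroblast&Endothelial_1 carried more UMIs of the 9 fibroblast markers than of pericyte or endothelial markers. All 9 fibroblast markers were detected there, with a summed level of 7079 CPM (UMIs per 1000000 UMIs of the cluster), while Rgs5, Cdh5, Kdr, Emcn, Vwf, Esam and Tie1 were at 0. It is called the fibroblast cluster below, and the endothelial part of its deposited name was not borne out by these markers. Fibroblast&Endothelial_2 held 54 cells with markers of several types: all 6 pericyte markers summed to 1823 CPM, 8 of 9 fibroblast markers to 1597 CPM and all 8 endothelial markers to 1132 CPM, with Pdgfra at 0. It is called the mixed stromal cluster. Hepatoma markers took 0.0680% of UMIs in the fibroblast cluster, 0.583% in the mixed stromal cluster and 1.33% in the 11 tumour clusters, and the part of this in the collagen values was not tested. Of the 8 hepatoma markers H19 ran the other way, at 134 CPM in the fibroblast cluster, 18.6 CPM in the mixed stromal cluster and 0.0960 CPM in tumour cells. The cluster named Adipocyte held 2 cells, lacked all 3 measured adipocyte markers in the antibody library and had 1 collagen UMI. Between the antibody and IgG libraries, 11 cell barcodes were shared.

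Collagen transcripts lay mainly in few cells. The 150 cells of the 2 stromal clusters were 2.74% of the cells and held 1.95% of all UMIs, but 88.0% (87.7 to 88.3) of the collagen UMIs. The fibroblast cluster alone held 42558 collagen UMIs, which was 79.6% (79.3 to 79.9) of all collagen UMIs and 3.79% of its own UMIs. Its collagen level was 37871 CPM (37512 to 38233). The mixed stromal cluster held 4491 collagen UMIs, or 13926 CPM (13521 to 14339). The 3213 tumour cells held 5674 collagen UMIs at 90.8 CPM (88.4 to 93.1), and macrophages held 258 at 66.1 CPM (58.3 to 74.7). MDSC_1 to MDSC_4, with 91 collagen UMIs, were at 107 CPM (86.4 to 132), an interval that overlaps that of tumour cells. MDSC_5, with 53 collagen UMIs, was at 129 CPM (96.5 to 169) and the cluster named Unknown, with 235, at 135 CPM (118 to 154), both above tumour cells. Hepatoma markers took 0.135%, 0.886% and 1.16% of the UMIs of these 3 classes, and the part of RNA from other cells in their collagen level was not tested. In the cluster named Unknown, 8 of 95 cells carried markers of both stromal and immune cells and held 125 of the 235 collagen UMIs. The level of that cluster without these cells was not computed. The lowest levels among classes of over 50 cells were those of T cells, at 27.9 CPM (21.4 to 35.6), and of the cluster named DC, at 39.9 CPM (28.1 to 55.0), whose intervals overlap.

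**Figure D1:**
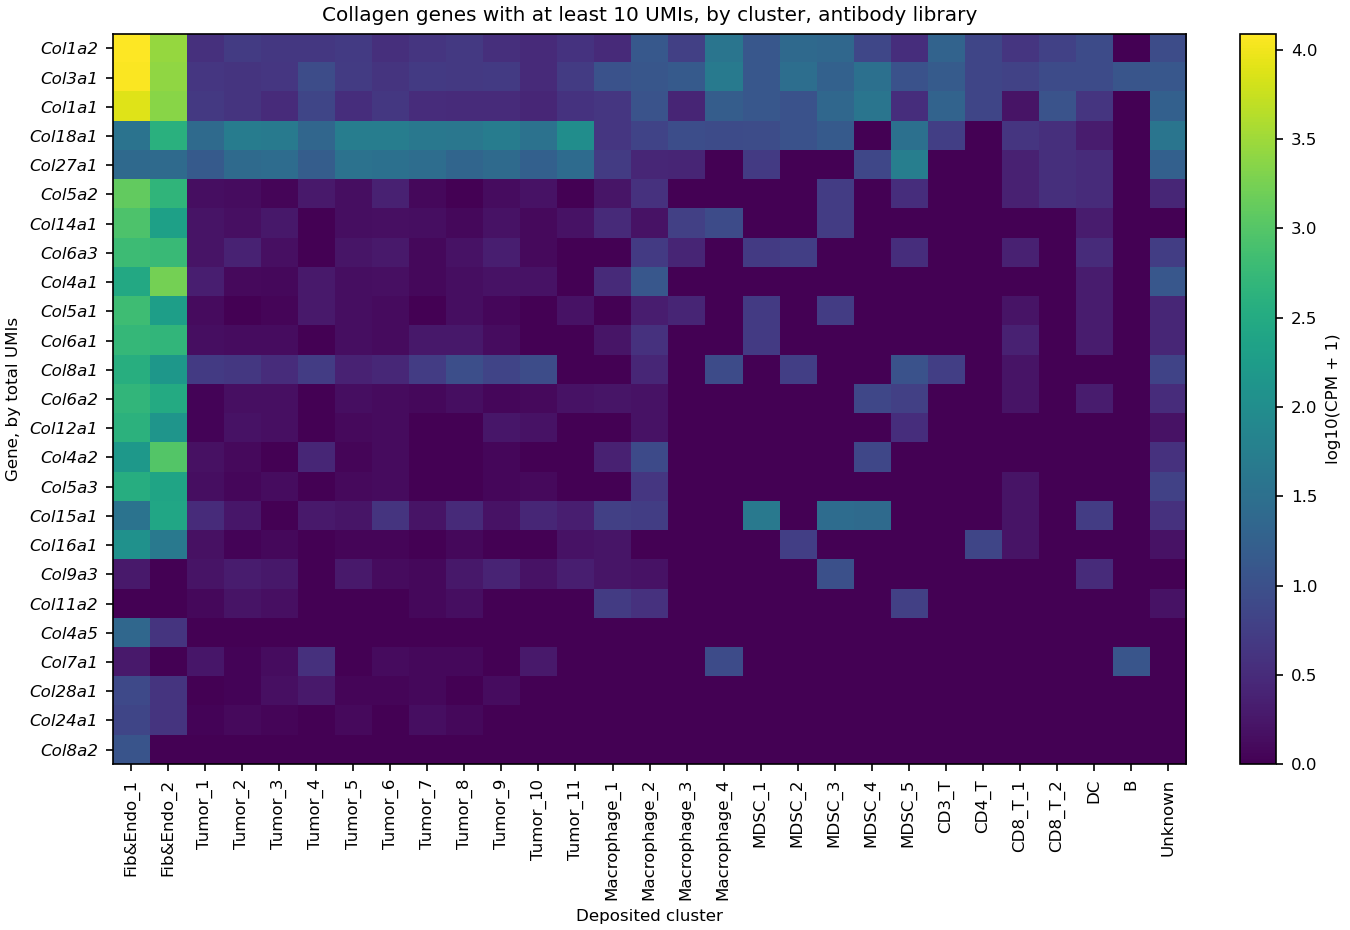
Heat map of log10(CPM + 1) of the 25 collagen genes with at least 10 UMIs (rows, by total UMIs) in 29 deposited clusters of the antibody library (columns; the 2 cells named Adipocyte are left out, and Fib&Endo stands for Fibroblast&Endothelial). Most rows are bright in the first 2 columns only, while Col18a1 and Col27a1 are visible across all 11 tumour clusters.

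Counted gene by gene, 15 of the 25 collagen genes with at least 10 UMIs had more than 90% of their UMIs in the 2 stromal clusters. The highest level lay in the fibroblast cluster for 17 genes, in the mixed stromal cluster for 4 and in the tumour clusters for none. The other 4 were Col27a1, Col11a2, Col9a3 and Col7a1, each with its highest CPM in a class where it had at most 23 UMIs. A gene was counted as higher in a class when its CPM was at least 4 times that in all other cells. In the fibroblast cluster 20 of 25 collagen genes were higher by this rule, against 12.1% of the 15331 genes with at least 10 UMIs, and 1 (Col11a2) was lower, against 23.9%. In the mixed stromal cluster 20 of 25 were higher, against 9.71% of all genes, and 4 (Col7a1, Col8a2, Col9a3 and Col11a2) were lower, against 26.4%. Each of these lower genes had 0 UMIs in the cluster, which allows up to 2.67 CPM in the fibroblast cluster and 9.30 CPM in the mixed stromal cluster, more than their levels of 0.162 to 0.758 CPM in all other cells, so a lower level was not detectable at this depth. Of the higher genes of the mixed stromal cluster, Col4a5, Col24a1 and Col28a1 were at 3.10 CPM each, below the same 9.30 CPM. The median log2 ratio of the 25 genes was 7.64 in the fibroblast cluster and 3.98 in the mixed stromal cluster, beside medians of -0.17 and -0.21 over all genes. With genes at 0 UMIs on either side set to a floor of 3 UMIs, these medians were 7.64 and 4.29, beside 0.31 and 0.56. When the other classes were weighted alike instead of being summed, 18 genes were past 4-fold in the fibroblast cluster, against 9.13% of all genes, and 8 in the mixed stromal cluster, against 5.47%. In the tumour clusters 21 of 25 were at least 4-fold lower, against 20.0% of all genes, and none was 4-fold higher, against 5.03%. In T cells 24 of 25 were lower, against 25.2% of all genes, and none was higher, against 10.1%. The cluster named DC had 23 lower, against 27.6%, and none higher, against 11%. MDSC_1 to MDSC_4 had 22 lower, against 40.4%, and macrophages had 19, against 18.0%. For each class outside the stroma, all other cells included the 2 stromal clusters, which held 88.0% of the collagen UMIs. The counts of lower genes were therefore largely set by that reference and do not compare tumour and immune classes with each other. Col4a5 and Col8a2, with all their UMIs in the stromal clusters, passed the filter of 10 UMIs only through them. Among these lower genes, Col4a5, Col8a2, Col24a1 and Col28a1 had 0 UMIs in T cells, DC, MDSC_1 to MDSC_4 and macrophages. Floors of 0.769 to 3.54 CPM exceeded their levels of 0.164 to 0.370 CPM in other cells, so a lower level was not detectable. The same held for Col7a1 and Col11a2 in T cells, DC and MDSC_1 to MDSC_4. It also held for Col9a3 in T cells and Col16a1 in DC. These genes had 0 UMIs there and 0.327 to 2.21 CPM in other cells. With the floor, the medians in T cells, DC, MDSC_1 to MDSC_4 and macrophages were -3.49, -1.62, -2.27 and -2.86, beside 0.27, 0.32, 0.08 and 0.25 over all genes.

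**Figure D2:**
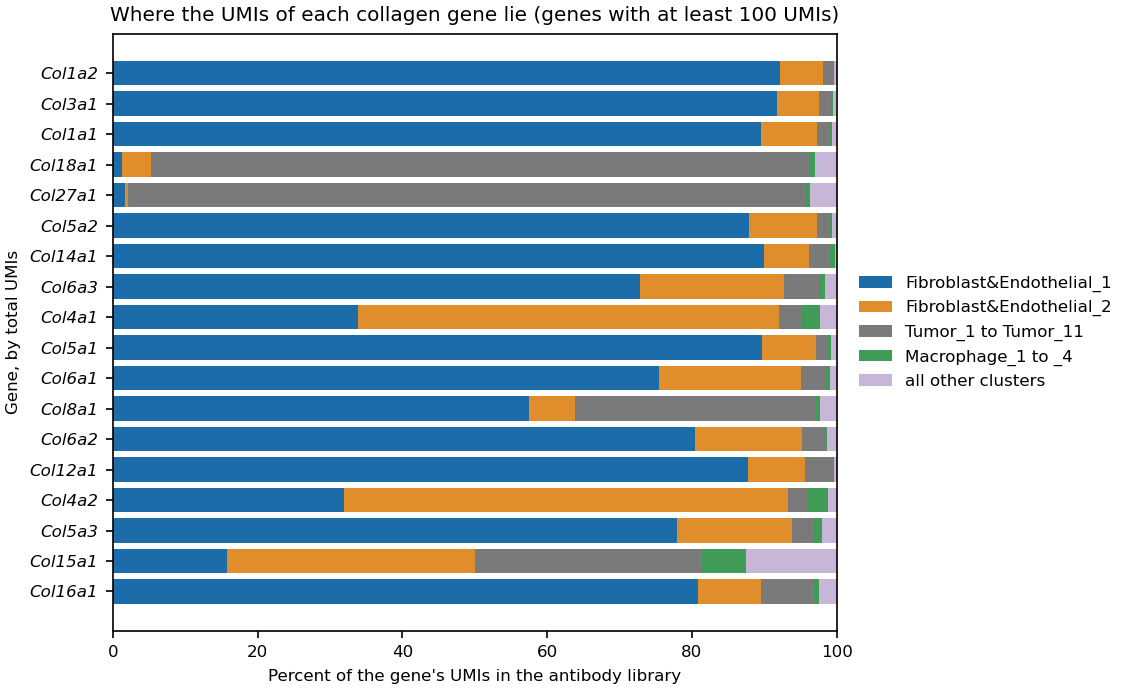
Share of the UMIs of each collagen gene with at least 100 UMIs (rows) that lay in the fibroblast cluster, the mixed stromal cluster, the 11 tumour clusters, the 4 macrophage clusters and all other clusters (stacked bars, percent of the gene's UMIs in the antibody library). The genes of types I, III and V are almost wholly stromal, Col4a1 and Col4a2 lie mostly in the mixed stromal cluster, and Col18a1 and Col27a1 lie in the tumour clusters.

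The 3 most abundant collagen genes were the chains of types I and III, the main fibres of connective tissue, and they made up 72.6% of all collagen UMIs. Col1a2 had 14994 UMIs in all. Its level was 12304 CPM (12100 to 12511) in the fibroblast cluster, 2732 CPM (2554 to 2918) in the mixed stromal cluster, 3.28 CPM (2.85 to 3.76) in tumour cells, 8.46 CPM (5.82 to 11.9) in macrophages and 5.31 CPM in T cells. Col3a1 had 14013 UMIs and a level of 11445 CPM (11248 to 11644) in the fibroblast cluster and 2536 CPM (2366 to 2716) in the mixed stromal cluster. In tumour cells Col3a1 was at 3.52 CPM (3.07 to 4.02). Col1a1 had 9788 UMIs, with 7803 CPM (7641 to 7968) in the fibroblast cluster, 2347 CPM (2183 to 2521) in the mixed stromal cluster and 2.83 CPM (2.43 to 3.28) in tumour cells. Every cell of the fibroblast cluster had UMIs of each of the 3 genes. After each cell was thinned to 1000 UMIs, the share of cells with a UMI of any of the 3 was 100% in the fibroblast cluster, 68.7% (52.4 to 83.0) in the mixed stromal cluster, 1.03% (0.717 to 1.46) in tumour cells and 2.65% (1.41 to 4.46) in T cells. T cells should lack these transcripts and were used as the background. The thinned share in tumour cells lay below theirs, while the unthinned share, given below with the depths, lay above theirs. The source of these UMIs in tumour cells was not tested. In the other immune classes the thinned share was 0.757% in the 37 cells of MDSC_5, 1.77% in the cluster named DC, 2.98% in macrophages and 5.24% in MDSC_1 to MDSC_4, and its source was not tested. The unthinned shares were 16.1% of tumour cells, with a median depth of 20428 UMIs, and 6.92% of T cells, with a median depth of 2808 UMIs.

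The starts of 4 genes are shown, which make up most of the fibrillar and basement membrane signal. Over the cells of the fibroblast cluster Col1a2 had a Pearson correlation of 0.71 with Col3a1, and Col4a1 of 0.75 with Col4a2. Col1a1, whose correlation with Col1a2 was higher, at 0.86, is not shown. The windows run from 250 bases before to 50 bases after a transcript start of RefSeq (build GRCm38.p6). A window was found for 30 of the 37 genes. Capitals mark a CCAAT box (CCAAT, or ATTGG on the other strand), a TATA box (TATAAA or TTTATA) or a GC box (GGGCGG or CCGCCC), none of which overlap another. They read 5′ to 3′ along each gene's own strand.
Col1a2 (plus strand, chr6:4505368-4505667): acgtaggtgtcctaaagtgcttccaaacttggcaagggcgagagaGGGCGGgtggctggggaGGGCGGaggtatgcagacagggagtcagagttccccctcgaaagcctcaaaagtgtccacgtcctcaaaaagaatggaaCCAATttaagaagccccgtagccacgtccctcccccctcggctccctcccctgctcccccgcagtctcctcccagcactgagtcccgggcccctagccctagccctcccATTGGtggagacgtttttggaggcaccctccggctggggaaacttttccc
Col3a1 (plus strand, chr1:45311288-45311587): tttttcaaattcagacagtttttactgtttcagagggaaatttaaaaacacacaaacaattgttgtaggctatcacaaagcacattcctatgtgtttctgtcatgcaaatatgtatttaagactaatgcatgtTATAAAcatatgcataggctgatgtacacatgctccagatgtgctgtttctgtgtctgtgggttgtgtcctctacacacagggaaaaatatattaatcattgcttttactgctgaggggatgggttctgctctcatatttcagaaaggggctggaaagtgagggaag
Col4a1 (minus strand, chr8:11312777-11313076): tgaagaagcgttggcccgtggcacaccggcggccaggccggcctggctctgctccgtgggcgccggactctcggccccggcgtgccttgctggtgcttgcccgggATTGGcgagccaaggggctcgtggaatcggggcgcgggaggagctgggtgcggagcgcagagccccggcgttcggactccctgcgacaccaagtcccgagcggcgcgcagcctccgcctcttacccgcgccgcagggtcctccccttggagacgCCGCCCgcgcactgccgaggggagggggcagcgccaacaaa
Col4a2 (plus strand, chr8:11312555-11312854): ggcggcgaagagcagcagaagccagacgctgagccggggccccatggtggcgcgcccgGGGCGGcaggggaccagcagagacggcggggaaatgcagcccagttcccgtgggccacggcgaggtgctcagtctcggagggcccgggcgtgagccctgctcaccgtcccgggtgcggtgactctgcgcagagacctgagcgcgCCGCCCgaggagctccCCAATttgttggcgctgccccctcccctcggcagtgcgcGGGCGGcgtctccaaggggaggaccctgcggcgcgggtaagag

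The Col1a2 window is 61.0% G and C and holds 2 CCAAT and 2 GC boxes, while the Col3a1 window is 37.7% G and C and holds only a TATA box of the 3 motifs. Relative to the transcript start, this TATA match begins at -117, and the Col1a2 CCAAT matches begin at -109 and 0. Col4a1 and Col4a2 lie head to head on opposite strands, with their starts 21 bases apart. The Col4a1 start is at 11312826 and the Col4a2 start at 11312805, so by these positions the 5′ ends of the transcripts overlap. The 2 windows share 78 bases, and this stretch of the Col4a2 window is the reverse complement of that of the Col4a1 window. Of 33 windows of collagen genes, 11 held a CCAAT box, 5 a TATA box and 19 a GC box, beside 37.4%, 13.6% and 35.7% of 32851 windows of all genes. These matches are letters in a window and do not show that a factor binds there.

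Of the other fibrillar genes, those of type V were also mainly stromal, at lower levels. Col5a2, Col5a1 and Col5a3 encode chains of type V, which takes part in starting fibres and setting their diameter. In the fibroblast cluster they were at 1265 CPM (1199.6 to 1332), 668 CPM (621 to 718) and 347.9 CPM (314 to 384). The same genes were at 471, 192 and 248 CPM in the mixed stromal cluster and at or below 0.432 CPM in tumour cells. Col24a1, a minor fibrillar chain, had 18 UMIs, 7 of them in the fibroblast cluster and 10 in the much larger total of the tumour clusters. Col11a2, a chain known from cartilage, had 30 UMIs and none in either stromal cluster. It had 11 UMIs in 11 macrophages, at 2.82 CPM (1.41 to 5.05) against 0.270 in all other cells, and was the only collagen gene past 4-fold higher in macrophages, where 13.2% of all genes were. The highest CPM of Col11a2 lay not in macrophages but in the 37 cells of MDSC_5, on few UMIs.

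The chains of a trimer were not counted in the ratio in which they are built into protein. Type I collagen is usually made of more alpha1 than alpha2 chains, yet there were 0.634 (0.617 to 0.651) Col1a1 UMIs per Col1a2 UMI in the fibroblast cluster and 0.859 (0.779 to 0.948) in the mixed stromal cluster. A 3′ library counts a transcript by its end, so the ratios do not depend on transcript length, but how well each end is captured is not known. The intervals of the 2 clusters do not overlap. Without the 5 cells of each class with the most collagen UMIs, the ratio in the mixed stromal cluster was 0.960 and that in the fibroblast cluster 0.635. In tumour cells the ratio was 0.863 (0.702 to 1.06), over 177 and 205 UMIs. Col3a1 was counted at 0.930 UMIs per Col1a2 UMI in the fibroblast cluster and 0.928 in the mixed stromal cluster. For type IV there were 1.95 (1.61 to 2.36) Col4a1 UMIs per Col4a2 UMI in the fibroblast cluster and 1.73 (1.51 to 1.99) in the mixed stromal cluster, so these intervals overlap. Col5a3 was counted at 0.521 (0.460 to 0.589) UMIs per Col5a1 UMI in the fibroblast cluster and at 1.29 (0.915 to 1.83) in the mixed stromal cluster.

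Type VI collagen forms beaded filaments around cells. Its chains Col6a3, Col6a1 and Col6a2 were at 626 CPM (581 to 675), 534 CPM (492 to 578) and 485 CPM (445 to 527) in the fibroblast cluster, and at 598 CPM (517 to 689), 484 CPM (411 to 566) and 313 CPM (255 to 381) in the mixed stromal cluster. For Col6a3 and Col6a1 the intervals of the 2 clusters overlap, unlike those of types I, III and V. Col6a6 had 9 UMIs, all in the fibroblast cluster. The fibril-associated collagens, which sit on the surface of fibres, were led by Col14a1 and Col12a1. Col14a1 was at 881 CPM (827 to 938) and Col12a1 at 426 CPM (389 to 466) in the fibroblast cluster, against 211 CPM (164 to 267) and 133 CPM (96.5 to 180.0) in the mixed stromal cluster. Col16a1 was at 117 CPM (97.5 to 138) in the fibroblast cluster and 43.4 CPM (23.7 to 72.8) in the mixed stromal cluster. Col9a3 differed from these: 49 of its 56 UMIs lay in tumour cells, in 49 cells, at 0.784 CPM (0.580 to 1.04). Tumour cells held 84.3% of all UMIs, and the Col9a3 level in all other cells was 0.601 CPM. It was at 2.36 CPM in MDSC_1 to MDSC_4 and 2.16 CPM in the cluster named DC, on few UMIs.

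Basement membrane chains had another distribution. Col4a1 was at 1739.5 CPM (1599 to 1889.6) in the mixed stromal cluster, which held 58.1% of its UMIs, and at 291 CPM (260.3 to 324) in the fibroblast cluster. Col4a2 was at 1005 CPM (898 to 1120.2) and 149 CPM (128 to 174) in the same clusters. In tumour cells the 2 genes were at 0.496 and 0.224 CPM. Macrophages held 24 UMIs of Col4a1, but 20 of these lay in 1 cell of Macrophage_2. That cell, of 21251 UMIs, held 87 of the 258 collagen UMIs of all macrophages and also had stromal markers. Col4a5 was found almost only in the fibroblast cluster, with 25 of 26 UMIs in 23 of its cells. Col8a2, a chain of the hexagonal network of type VIII, had 12 UMIs, all in 7 cells of the fibroblast cluster.

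The mixed stromal cluster was divided by the marker list with the most UMIs in a cell, of at least 3, a rule set after its mixed markers had been seen. This gave 16 cells with fibroblast markers, 11 with pericyte markers, 12 with endothelial markers and 15 with fewer than 3 UMIs of any list. These groups were not pure by their markers. The cells with endothelial markers held 304 endothelial and 113 pericyte marker UMIs, and the cells with pericyte markers held 452 pericyte, 56 fibroblast and 51 endothelial marker UMIs. Cells with pericyte markers had the highest collagen level of these, at 23061 CPM (21993 to 24169), against 11999 CPM in the cells with fibroblast markers and 10899 CPM in those with endothelial markers. Col4a1 was at 4229 CPM (3741 to 4763) in cells with endothelial markers, 3432 CPM (3028 to 3876) in cells with pericyte markers and 166 CPM (109.7 to 242) in cells with fibroblast markers. Col1a2 was lowest in the cells with endothelial markers, at 435 CPM (289 to 629) with a UMI in 2 of 12 cells. It was at 3630.2 CPM (3214 to 4086) in the cells with pericyte markers and 3478 CPM (3196 to 3777) in those with fibroblast markers, and these intervals overlap. Col15a1 was at 805 CPM (616 to 1034), 311 CPM (189.9 to 480.2) and 18.5 CPM (3.81 to 54.1) in the cells with pericyte, endothelial and fibroblast markers. Col18a1 was at 1016 CPM (802 to 1270), 482 CPM (327 to 684) and 104.8 CPM (61.1 to 168) in the same order. Col6a3, near level between the 2 stromal clusters, was at 1478 CPM (1217 to 1779), 575 CPM (405 to 793) and 240 CPM (171 to 329) in this order. Col8a1 was at 462 CPM (322 to 643), 77.7 CPM (25.2 to 181) and 30.8 CPM (10.0 to 71.9). The 16 cells with fibroblast markers had 0.932% hepatoma marker UMIs, against 0.0634% and 0.0606% in the cells with pericyte and endothelial markers, and its part in their lower collagen level was not tested.

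**Figure D3:**
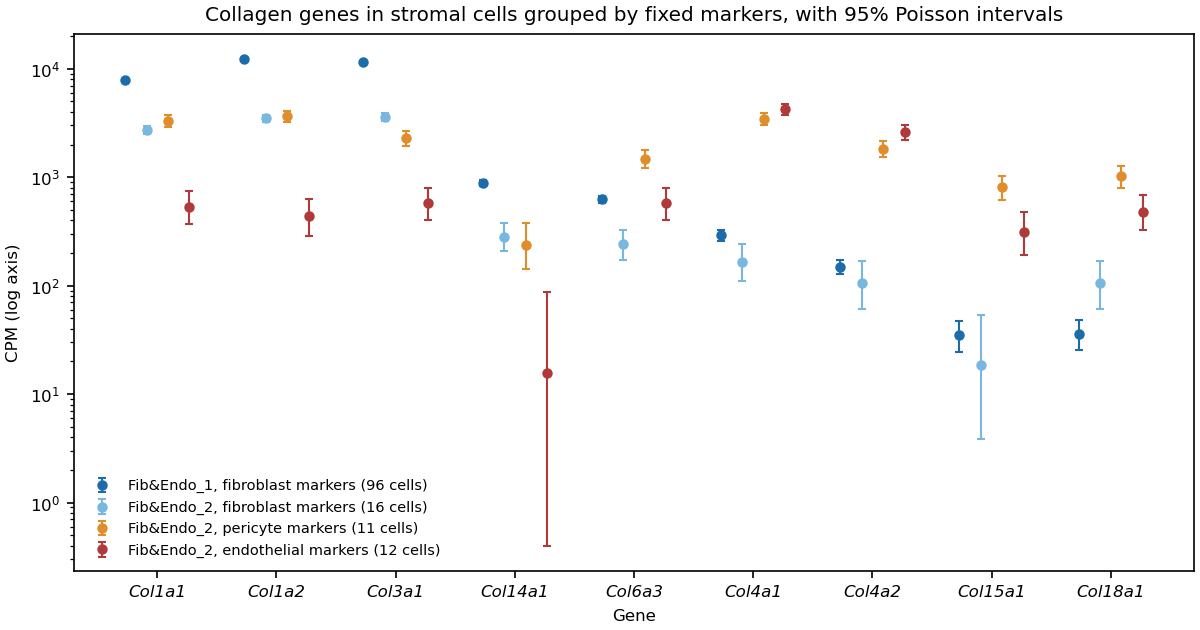
Levels of 9 collagen genes (CPM, log axis) in the fibroblast cluster and in the cells of the mixed stromal cluster grouped by marker list (points, with 95% Poisson intervals that cover counting error only). Types I and III are highest in the 96 cells of the fibroblast cluster, whereas Col6a3, Col4a1, Col4a2, Col15a1 and Col18a1 are highest in the cells with pericyte or endothelial markers.

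Cells of the fibroblast cluster also differed from each other. Collagen took from 1.13% to 9.14% of a cell's UMIs, with a median of 3.83%. Correlations over these 96 cells of 1 library describe the cells and share its depth and capture. They were computed for 15 collagen genes, and the pairs named here are among those farthest from 0, picked after their values were seen. Col1a1 and Col1a2 had a Pearson correlation of 0.86 (Spearman 0.87), Col4a1 and Col4a2 of 0.75 (0.67), Col1a2 and Col3a1 of 0.71 (0.67) and Col6a1 and Col6a2 of 0.60 (0.61). Col8a1, a short-chain collagen of vessel walls and remodelled tissue, stood apart. It was detected in 62 of the 96 cells and correlated with Col12a1 at 0.53 (0.53), but with Col4a2 at -0.39 (-0.38) and with Col3a1 at -0.35 (-0.39). With Col1a1 the correlation was 0.10 (0.07). Col8a1 also correlated with Acta2, the smooth muscle actin of myofibroblasts, at 0.42 (0.37) and with Bgn at 0.49 (0.44), and at -0.62 (-0.64) with Clec3b, -0.63 (-0.62) with Tnxb and -0.60 (-0.66) with Dcn. Col14a1 instead correlated with Dpt, a matrix protein of skin, at 0.48 (0.52) and with Ogn at 0.52 (0.53). The correlations of the 15 genes with the log of depth ran from -0.31 to 0.12.

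**Figure D4:**
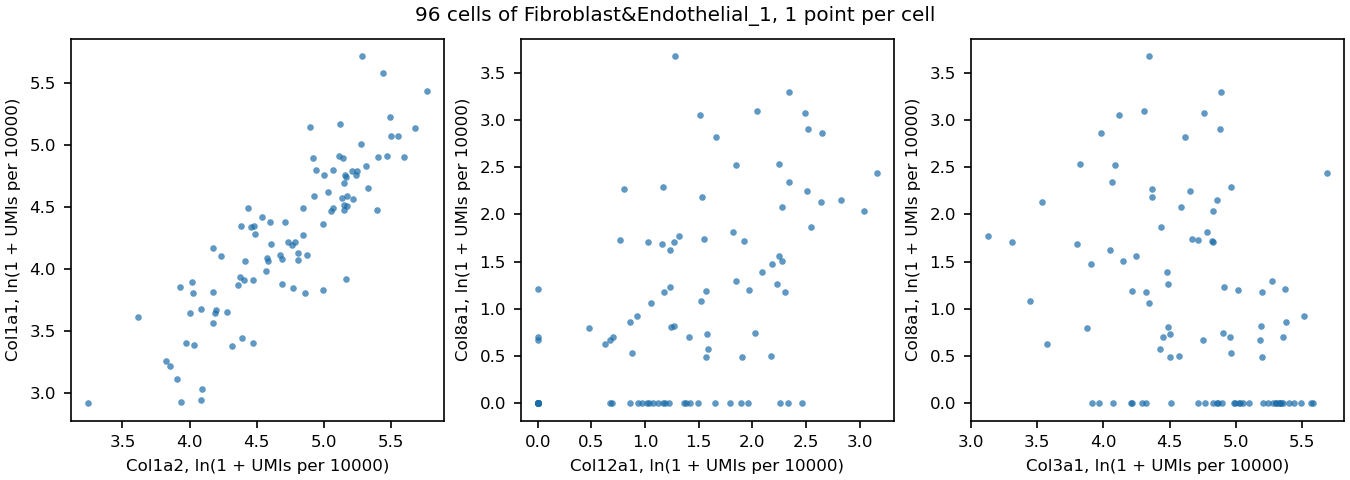
Pairs of collagen genes in the 96 cells of the fibroblast cluster (points, 1 per cell; axes are the natural log of 1 plus UMIs per 10000 UMIs of the cell). Col1a1 rises with Col1a2, whereas cells with the most Col8a1 have more Col12a1 and lie at low to middle values of Col3a1.

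In tumour cells most collagen UMIs came from Col18a1 and Col27a1. Col18a1 had 3130 UMIs, of which 2849 (91.0%) lay in tumour clusters, and it made up 50.2% of the collagen UMIs of tumour cells. Its level was nevertheless higher in the mixed stromal cluster, at 388 CPM (323 to 462), than in tumour cells, at 45.6 CPM (43.9 to 47.3), and it was 35.6 CPM (25.4 to 48.5) in the fibroblast cluster. Tumour cells held 84.3% of all UMIs. Thinned to 1000 UMIs, 4.39% (3.69 to 5.15) of tumour cells had a Col18a1 UMI, against 0.280% (0.00512 to 1.12) of T cells, and unthinned 49.6% and 1.35% did. Col27a1, a fibrillar collagen known from cartilage and other developing tissues, was at 24.4 CPM (23.2 to 25.7) in tumour cells, 24.0 CPM (15.8 to 35.0) in the fibroblast cluster and 24.8 CPM (10.7 to 48.9) in the mixed stromal cluster, so the intervals of these classes overlap. Thinned to 1000 UMIs, 2.33% (1.83 to 2.92) of tumour cells and 0.135% of T cells had a Col27a1 UMI, and unthinned 31.9% and 0.577% did. It was at 2.56 CPM (1.23 to 4.71) in macrophages and 55.9 CPM (35.5 to 83.9) in the 37 cells of MDSC_5, whose hepatoma markers took 0.886% of UMIs.

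Across the 11 tumour clusters Col18a1 ran from 21.2 CPM (13.6 to 31.5) in Tumor_4 and 24.6 CPM (21.4 to 28.0) in Tumor_1 to 102 CPM (87.1 to 118) in the 71 cells of Tumor_11. The 8 others lay between 34.3 CPM in Tumor_10 and 53.9 CPM in Tumor_5, and the interval of Tumor_11 overlaps none of the other 10. Col27a1 ran over a narrower range, from 13.2 CPM (10.9 to 15.7) in Tumor_1 to 33.6 CPM (29.4 to 38.2) in Tumor_5, and was 26.4 CPM (19.1 to 35.4) in Tumor_11. Col8a1 had 241 UMIs in tumour cells, at 3.85 CPM (3.38 to 4.37), against 371 CPM (336 to 408) in the fibroblast cluster and 146 CPM in the mixed stromal cluster. T cells held 2 Col8a1 UMIs, at 0.884 CPM (0.107 to 3.19), and macrophages held 4, at 1.03 CPM (0.279 to 2.63), and neither interval overlaps that of tumour cells. Thinned to 1000 UMIs, 0.428% (0.241 to 0.739) of tumour cells and 0.162% (0.00512 to 1.12) of T cells had a Col8a1 UMI, with intervals that overlap, and unthinned 5.14% and 0.385% did. It ran from no UMI in Tumor_11, which allows up to 1.80 CPM, to 8.69 CPM (6.29 to 11.7) in Tumor_8 and 7.85 CPM (5.17 to 11.4) in Tumor_10. The clusters were made from all genes of these cells, so the differences between them describe the clusters and are not tested.

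**Figure D5:**
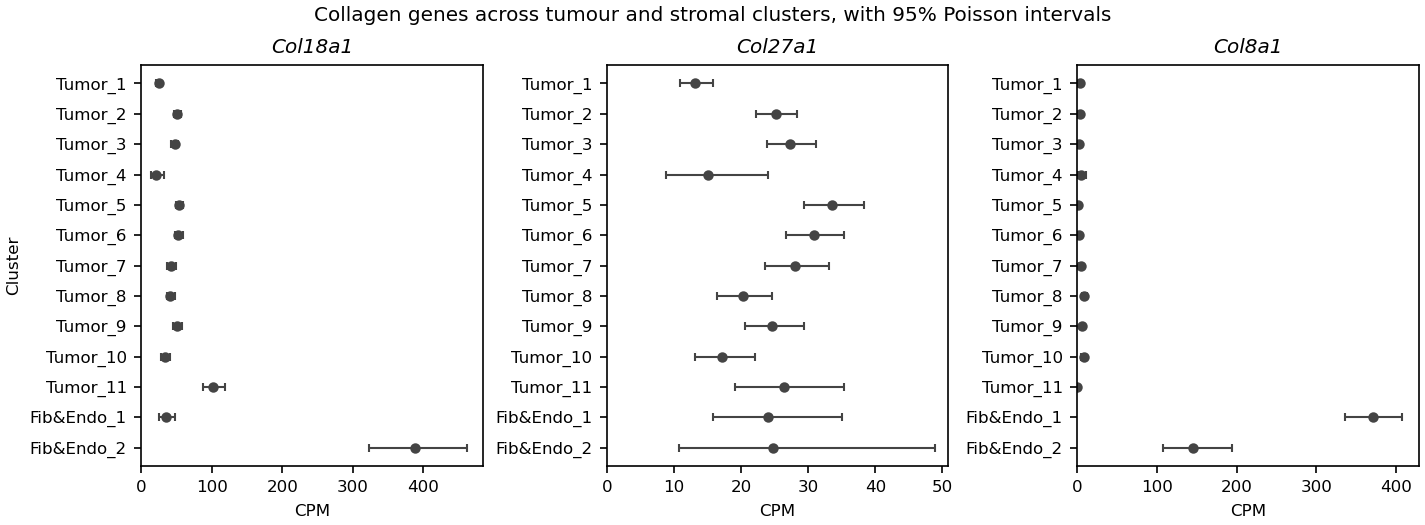
Levels of Col18a1, Col27a1 and Col8a1 (CPM, linear axes of different length) in the 11 tumour clusters and the 2 stromal clusters (points, with 95% Poisson intervals that cover counting error only). Tumor_11 has the highest Col18a1 of the tumour clusters and no Col8a1, and Col27a1 is at a similar level in tumour and stromal clusters.

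Col15a1, the other member of the type XVIII subfamily, had 124 of its 248 UMIs in the 2 stromal clusters, against 165 of 3130 for Col18a1. It was at 264 CPM (211 to 326) in the mixed stromal cluster and 34.7 CPM (24.7 to 47.4) in the fibroblast cluster, and tumour cells were at 1.25 CPM (0.986 to 1.56). The clusters MDSC_1 to MDSC_4 held 21 UMIs in 20 of 707 cells, at 24.8 CPM (15.3 to 37.8), against 3.10 CPM in all other cells. Of these, 11 lay in MDSC_1, 6 in MDSC_3, 4 in MDSC_4 and none in MDSC_2, where up to 14.3 CPM is allowed. Col15a1 was the only collagen gene 4-fold higher in these clusters, where 10.4% of all genes were. Their median depth was 1047 UMIs and types I and III were also above 16 CPM there, so that a part of free RNA in the Col15a1 level was not tested.

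Collagen counts in immune clusters were low and partly lay in few cells. Of 5482 cells, 26 carried markers of both stromal and immune cells, and these held 1288 collagen UMIs, of which 630 lay in 2 cells of the fibroblast cluster and 406 in 3 cells of the mixed stromal cluster. In macrophages 2 such cells held 87 of 258 collagen UMIs, in MDSC_5 1 held 2 of 53, and the 3 in the cluster named DC held none. In the cluster named Unknown 8 such cells held 125 of 235, and 7 in the tumour clusters held 38 of 5674. The low-count genes were spread as follows. Col10a1 had 6 of 8 UMIs and Col13a1 6 of 6 in the mixed stromal cluster. Col7a1 had 21 of 24 UMIs in tumour cells, and Col28a1 had 11 of 20 in tumour cells and 8 in the fibroblast cluster. Tumour cells held 84.3% of all UMIs. Col7a1 was at 0.336 CPM in tumour cells against 0.258 CPM in all other cells, and Col28a1 at 0.176 against 0.773 CPM. The remaining genes, Col4a4, Col11a1, Col20a1, Col22a1 and Col23a1, had between 1 and 9 UMIs and were not compared.

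Genes that make, process or bind collagen were followed as 4 lists. Of 30 tested genes for collagen synthesis and processing, 20 were at least 4-fold higher in the fibroblast cluster, against 12.1% of all genes, and 1 (Colgalt2) was lower, against 23.9%, with a median log2 ratio of 2.95 beside -0.17 over all genes (3.11 beside 0.31 with genes at 0 UMIs set to the floor). In the mixed stromal cluster 14 were higher, against 9.71% of all genes, and 1 (Adamts14) was lower, against 26.4%. Colgalt2 and Adamts14 had 0 UMIs where they were lower and 21 and 78 in the whole library, so a lower level was not detectable. Some higher calls also lay below the floor, with P3h2 at 0.890 CPM in the fibroblast cluster and Colgalt2 at 3.10 CPM in the mixed stromal cluster. Serpinh1, a chaperone of collagen chains, was at 2228 CPM in the fibroblast cluster, 893 CPM in the mixed stromal cluster and 0.512 CPM in tumour cells. Lox, which starts the cross-linking of fibres, was at 1084, 136 and 0.368 CPM, and Plod2, a lysyl hydroxylase, at 258, 40.3 and 0.0320 CPM. The most abundant members were shared with tumour cells: Ppib was at 1024, 629 and 397 CPM, P4hb at 723, 388 and 414 CPM, and Pcolce at 826, 282 and 244 CPM. None of the 30 was 4-fold higher in tumour cells, against 5.03% of all genes, and 13 were lower, against 20.0%.

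Of 14 fibril-associated proteins, 12 were higher and none lower in each stromal cluster, against 12.1% of all genes higher in the fibroblast cluster and 9.71% in the mixed stromal cluster. Their median log2 ratios were 8.73 and 3.40, beside -0.17 and -0.21 over all genes, and were the same with the floor, beside 0.31 and 0.56. Sparc, a collagen-binding glycoprotein, was at 15423 CPM in the fibroblast cluster and 5975 CPM in the mixed stromal cluster, and Dcn, the proteoglycan decorin, at 2949 and 574 CPM. Fn1, fibronectin, had the most UMIs of the list and was not past 4-fold, at 4437 CPM in the fibroblast cluster and 1273 CPM in tumour cells. Of 14 partners of type IV collagen, 9 were higher in the fibroblast cluster, against 12.1% of all genes, and 2 (Lama5 and Lamb3) were lower, against 23.9%. In the mixed stromal cluster 8 were higher, against 9.71%, and none was lower, against 26.4%. The median log2 ratios were 3.37 and 2.77, beside -0.17 and -0.21 over all genes. Nid1 was at 594 and 298 CPM and Nid2 at 8.90 and 99.2 CPM, so that these 2 nidogens ran in opposite directions between the clusters. Lama4 was at 192 and 183 CPM, while Lamb3 and Lama5 were at 58.5 and 51.2 CPM in tumour cells and at 6.23 CPM each in the fibroblast cluster. Of 9 collagen receptors, 3 (Itga11, Ddr2 and Mrc2) were higher in the fibroblast cluster, against 12.1% of all genes, and 3 (Itga2, Itga10 and Lair1) were lower, against 23.9%. In the mixed stromal cluster 2 (Itga1 and Mrc2) were higher, against 9.71%, and 3 (Itga10, Itga11 and Lair1) were lower, against 26.4%, each with 0 UMIs there. Itga10, also at 0 UMIs in the fibroblast cluster, and Itga11 had 43 and 23 UMIs in the whole library, so these lower levels were not detectable. The median log2 ratios were 1.21 and 0.061, beside -0.17 and -0.21 over all genes. Itga1 was at 285 CPM there against 13.3 CPM in the fibroblast cluster, and Lair1, an inhibitory receptor of leukocytes, was at 138 CPM in macrophages and 0.224 CPM in tumour cells.

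Over the 26 clusters of at least 50 cells, the genes outside the family whose levels were most like the sum of Col1a1, Col1a2 and Col3a1 were Fstl1, Bgn, Postn, Serpinf1 and Rarres2, with Pearson correlations of log2(CPM + 10) from 0.97 to 0.96. Those most like the sum of Col4a1 and Col4a2 were Mgp, Pdgfrb, Ramp2, Aoc3 and Cygb, from 0.98 to 0.97. Both sets rest on the 2 stromal clusters, which are the high points. For Col18a1 and Col27a1, added after their tumour pattern was seen, the nearest genes were Smad6 at 0.95 and Ptprg at 0.96.

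Between the libraries only Col9a1, a fibril-associated chain known from cartilage, could be compared, and its counts were very low. In tumour cells the IgG library held 20 UMIs in 18 of 4363 cells, at 0.255 CPM (0.156 to 0.394), and the antibody library held 1 UMI in 3213 cells, at 0.0160 CPM. The ratio of antibody to IgG was 0.0627 (0.00151 to 0.392), an interval of counting error alone that takes no account of the spread between mice or libraries. Without the IgG cell with the most Col9a1 UMIs, which held 3, the ratio was 0.0737. The IgG UMIs lay in 7 of the 11 tumour clusters, at 1 to 6 UMIs each, and no stromal cell of either library had a Col9a1 UMI. The other collagen genes of the IgG library were not analysed here, and no gene was used to check which library had which treatment.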

How the data were processed

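Cells of digested tumours were sequenced with a 3′ droplet kit, per the labels' protocols, and the submitters' processing notes name Cell Ranger 2.1.1. For genome build and clustering method: not given in the sources used here. The authors deposited a cluster name per cell and a matrix of natural log values, ln(1 + 10000 × UMIs / total), per a test on the values. UMI counts were recovered from them: all values of the antibody library were whole within 0.001. For IgG, 105 complete rows gave a depth for 5738 cells and none for 27, and on antibody cells the same step was equal to the true depth in 5440 of 5482, differed in 8 and gave no value in 34.

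UMIs were summed per cluster and scaled to CPM, with exact Poisson, Clopper-Pearson or conditional binomial intervals. Folds had a prior count of 0.5 scaled to the group totals, over genes with at least 10 UMIs, and were tested on simulated data. Thinned shares are expected values at 1000 UMIs, with intervals on that sum rounded to whole cells, and the cells with fewer UMIs were left out (38 tumour cells, 15 of the mixed stromal cluster, 26 T cells). No p-value was computed. Doublets were sought with scrublet in scanpy 1.11.5, which marked less than 0.5% of cells and was not used. Other tools were Python 3.11.15, numpy 2.4.6, pandas 2.3.3, scipy 1.17.1 and matplotlib 3.10.9. Genes named with full values had at least 200 UMIs, led their subfamily or were among the 3 highest of a class. Listed partner genes were those with the most UMIs or past 4-fold, and similar genes were the top 5. The members, lists and markers were chosen with earlier results of these data known. Alternatives changed the cells kept, the scaling, the filter, the fold, the reference and the thinning depth.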

Additional observations from a re-analysis of the deposited data

How the results depend on the processing

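With at least 2000 UMIs per cell, the share of collagen UMIs was 80.1% in the fibroblast cluster and 8.04% in the mixed stromal cluster, whose level was 14415 CPM. Without the 5 cells of each class with the most collagen UMIs, the shares were 80.8% in the fibroblast, 6.19% in the mixed stromal and 12.03% in the tumour clusters, the levels in the first 2 were 35917 and 11759 CPM, the Col1a1 to Col1a2 ratio of the mixed stromal cluster was 0.960 and the Col3a1 to Col1a2 ratio of the fibroblast cluster was 0.966. Without cells that hold stromal and immune markers, an alternative chosen after seeing the data, the shares were 80.4% and 7.83% and the levels 38551 and 14521 CPM in the fibroblast and mixed stromal clusters. As a mean over cells the levels were 40189.5, 12675 and 94.1 CPM in the fibroblast, mixed stromal and tumour clusters, and with collagen UMIs left out of the totals the fibroblast level was 39362 CPM. With the other classes weighted alike, 8 collagen genes were past 4-fold in the mixed stromal cluster. The other 50 values of these main results moved by less than their counting interval or, for counts, by less than 1.5 times, and none changed direction. Thinned shares followed the thinning depth: at 500 and 2000 UMIs, 2.22% and 8.50% of tumour cells had a Col18a1 UMI. Alternatives without predicted doublets were not run, since the caller did not work. No paired analysis was possible because there was 1 library per group. Genes with fewer than 10 UMIs were left out of the 4-fold counts, and where they lie rests on few UMIs. Spread between mice is unknown.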
